A study of Salvia miltiorrhiza with 5 samples.

Results

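The miRNAs of the miR168, miR403 and miR162 families were followed across root, stem, leaf and flower of *Salvia miltiorrhiza*. They were taken from the table of identified miRNAs by name, as every name holding miR168, miR403 or miR162 with no further digit. The rule found 6 of 488 names, which stand for 6 of 241 distinct sequences and 7 of 650 table entries, and no other name carried any of these sequences. The plants were grown in a field for 8 months and sampled in bloom without any treatment, and 1 small RNA library was made from each tissue. A further library of the 4 tissues mixed together was used for degradome sequencing, which reads the ends of cleaved mRNAs. Whether a library came from a single plant or from several is not given in the sources used here. No value has a replicate, so each difference below is one between libraries, and its error covers counting of reads only.

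These families are known from other plants, chiefly *Arabidopsis*, for acting on the small RNA machinery itself. A miRNA is cut from a hairpin precursor by a DICER-LIKE enzyme as a duplex of both arms, 1 strand of which is loaded into an ARGONAUTE protein and guides the cleavage of a matching mRNA. In *Arabidopsis* miR168 directs cleavage of the mRNA of AGO1, the main ARGONAUTE of miRNAs, while miR403 acts on AGO2 and miR162 on DCL1, the enzyme that makes most miRNAs. Through AGO1 and DCL1, miR168 and miR162 therefore take part in feedback loops.

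The sequences of the 6 names are shown because the arm, the first base and the ends decide which member is which. They are written 5′ to 3′ with T for U, as in the table, and capitals mark the seed, bases 2 to 8.
gma-miR168a: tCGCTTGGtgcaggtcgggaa
mtr-miR168c-3p: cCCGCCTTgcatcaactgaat
nta-miR168a_R+1_1ss20AT: tCGCTTGGtgcaggtcgggtct
ppe-miR168_R+4: tCGCTTGGtgcaggtcgggaacttc
har-miR403a: tTAGATTCacgcacaaactcg
zma-miR162-3p_R+1: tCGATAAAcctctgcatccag
The 3 names of the miR168 5′ arm share 1 seed, and the other 3 names have a seed each of their own. The prefixes name the species of the closest entry in miRBase, such as gma for soybean, so they are labels and not the source of the reads. The main sequences of miR168, miR403 and miR162 have 21 nt and begin with T. Among the 38 sequences of the table with at least 100 reads, 24 have 21 nt and 27 begin with T. The miR168 3′ arm begins with C, as do 4 of the 38.

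None of the 7 entries was placed by the authors on a sequence of the plant itself, and all rest on precursors of other species. For both main miR168 sequences the table lists 42 precursors of 27 species, for miR403 31 precursors of 15 species, and for miR162 36 precursors of 27 species. Both miR168 arms occur without a mismatch on a *Medicago truncatula* precursor, shown here with the arms in capitals because it sets both strands of the duplex side by side.
mtr-MIR168c: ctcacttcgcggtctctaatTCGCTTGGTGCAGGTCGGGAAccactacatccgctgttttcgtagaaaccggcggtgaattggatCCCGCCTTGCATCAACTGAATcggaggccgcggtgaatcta
The 5′ arm covers bases 21 to 41 of the 126 nt and the 3′ arm bases 86 to 106. In the folded structure that the table gives for this group of precursors, 16 base pairs join the arms, and each arm extends 2 bases beyond the pairing partner of the other arm's first base. Such overhangs at both 3′ ends are what a DICER-LIKE enzyme is known to leave. On their listed hairpins, 20 of the 21 bases of miR403 and 18 of the 21 bases of miR162 are paired.

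Together the 3 families held 0.868% of all miRNA reads in the table, nearly all of it in 3 sequences. miR403 had 8479 reads over the 4 libraries and was the 7th of 71 families, a family being the number in the name, and miR168 had 5515.5 reads and was the 9th. Reads need not be whole, because the authors divided a read over the entries it matched. The fraction here lies in the 99.5 flower reads of mtr-miR168c-3p. That name has 1 entry among those analysed, so where the rest of the divided read went was not traced. Within miR168, gma-miR168a of the 5′ arm had 85.6% of the reads and mtr-miR168c-3p of the opposite arm 14.3%. The remaining names had 1 read each. As single sequences, miR403 ranked between the 5th place in stem and the 9th in root, gma-miR168a between the 7th in leaf and the 11th in root, and mtr-miR168c-3p between the 18th in stem and leaf and the 27th in flower.

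miR162, the family of the DICER-LIKE loop, had a single read. It was found in flower as zma-miR162-3p_R+1, which is 1 base longer than the maize reference, and the added base is that of the maize precursor. One read has an exact 95% Poisson interval of 0.0253 to 5.57 reads. Root, stem and leaf had 0 reads, which was taken as up to 3 reads, while the exact interval for 0 reaches 3.69. The 3 reads stand for 0.339 RPM in root, 0.456 RPM in stem and 0.558 RPM in leaf. RPM means reads per 1000000 clean reads, and clean reads are all those left after the authors' filters. Flower, with its 1 read, stood at 0.246 RPM. With 1 read no difference between tissues could be detected, whichever library held it (exact multinomial test, p = 0.277, and 0.392 after Benjamini-Hochberg adjustment over all names).

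Both rare forms of miR168 differ from the main sequence at the 3′ end, outside the seed. In nta-miR168a_R+1_1ss20AT the tobacco precursor and the read differ by A20T, with positions counted from 1 at the 5′ end, the precursor's base first and the base of the read last. Its 1 read lay in leaf and was divided over 2 tobacco precursors. ppe-miR168_R+4 has 25 nt, 4 more than the peach reference, and differs from the peach precursor by G24T within the added bases. Its 1 read lay in stem. With 1 read neither name could pass the test across libraries, whichever library held the read (exact multinomial test, p = 0.118 for the tobacco form and 0.591 for the peach form).

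Which tissue held most of the miR168 guide strand was asked first. Root gave 1393 reads of gma-miR168a and stem 1538, while leaf gave 986 and flower 806. The authors multiplied the reads of a library by 1 factor, from 0.547 for root and 0.715 for stem to 1.41 for flower and 1.90 for leaf, and the product is the normalized count. The normalized count came to 1875 in leaf (exact 95% Poisson interval 1760 to 1996), 1136 in flower (1059 to 1217), 1099 in stem (1045 to 1156) and 762 in root (723 to 804). Leaf was thus the highest and root the lowest, with stem and flower between them and not told apart, the flower level being 1.03 times that of stem (0.947 to 1.13). The leaf level was 2.46 times that of root (2.26 to 2.67). The reads departed from the relative depths of the libraries (chi-squared test on 3 degrees of freedom, p = 1.33e-105, and 2.23e-104 after Benjamini-Hochberg adjustment over all names). At p under 0.01 the test across libraries called 34.3% of the 286 names whose reads, rounded in each library, did not all come to 0. Of these names, 226 had an expected count below 5 and took the exact multinomial test. The 34.3% thus says little about names as abundant as gma-miR168a. Of the 60 names that took the chi-squared test, all passed but PC-3p-115345_10 (chi-squared test, p = 0.979) and nta-miR160a (p = 0.221). Passing therefore does not set a name of this abundance apart. The test compares 4 libraries and not 4 tissues.

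The order of tissues for miR168 rested on how the libraries were scaled. In RPM, which uses no factor of the authors, gma-miR168a had 234 in stem (222 to 245), 198 in flower (185 to 212), 183 in leaf (172 to 195) and 157 in root (149 to 166). By this measure stem was the highest, at 1.49 times root (1.38 to 1.60), and flower and leaf were not told apart. Root was again the lowest. Of 5 scalings (the authors' factors, clean reads, all miRNA reads, miRNA reads without the 10 most abundant sequences, and the median of ratios), leaf was the highest in 3 and stem in 2, and the lowest was root in 3 and flower in 2. In a tissue library, fewer cells that make a miRNA and less of it per cell cannot be told apart.

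**Figure D1:**
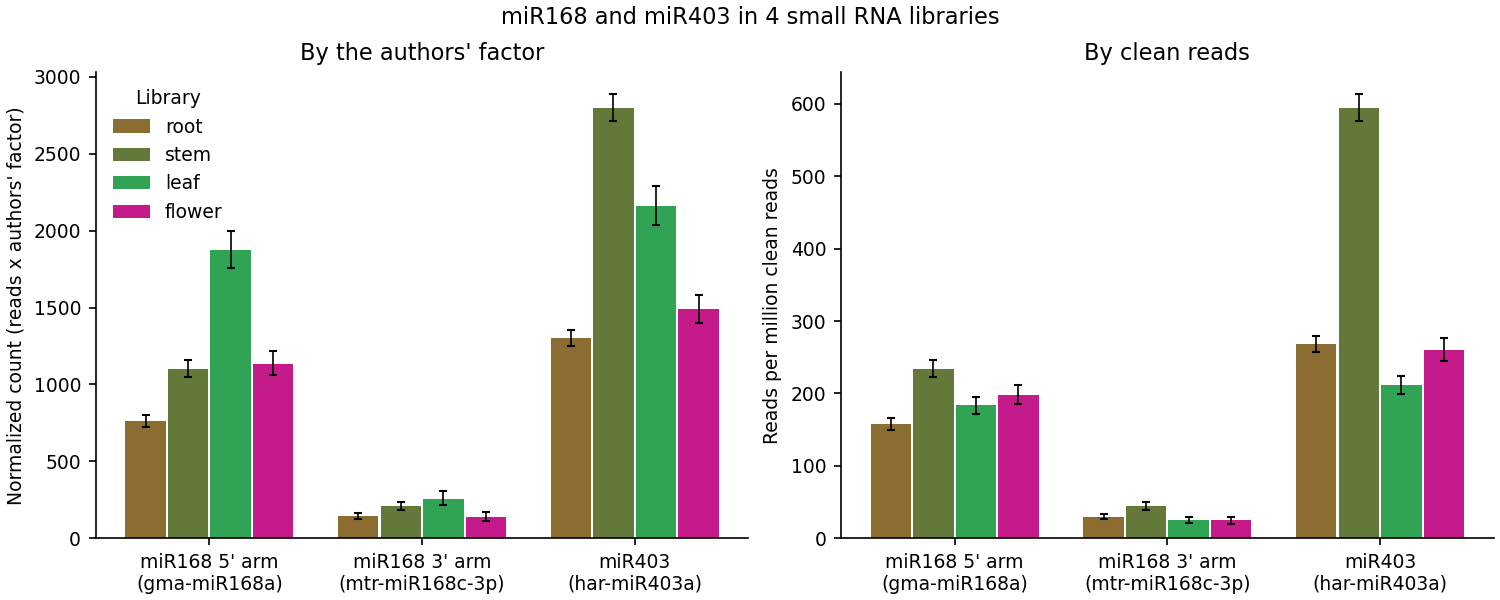
Levels of the 3 abundant members in each library as normalized counts (left axis) and as RPM (right axis). Bars are 1 library each and error bars are exact 95% Poisson intervals, which cover counting only. miR403 was highest in stem on both axes, while the miR168 5′ arm was highest in leaf on the left and in stem on the right.

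The opposite arm of miR168 had fewer reads and was also highest in leaf by normalized count. Stem gave 293 reads of mtr-miR168c-3p and root 263, while leaf gave 135 and flower 99.5. Its normalized count was 257 in leaf (215 to 304), 209 in stem (186 to 235), 144 in root (127 to 162) and 140 in flower (114 to 171). Leaf stood first, but the interval of leaf over stem, 0.992 to 1.51, includes equal levels, and flower and root were not told apart either. Flower was the lowest under each of the 5 scalings used for gma-miR168a, and stem the highest in 3 of them. By normalized count leaf was 1.83 times flower (1.40 to 2.38). It passed the test across libraries (chi-squared test, p = 1.81e-09, and 9.10e-09 adjusted over all names). In RPM, stem led with 44.5 (39.5 to 49.9), and root with 29.7, leaf with 25.1 and flower with 24.5 were not told apart.

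The balance of both arms was compared next, because a share within a library does not depend on the scaling. Neither arm was placed on a sequence of the plant itself, so whether both come from 1 hairpin was not tested. The 3′ arm made up 15.9% of the miR168 reads in root (exact Clopper-Pearson 95% interval 14.2 to 17.7), 16.0% in stem (14.4 to 17.8), 12.0% in leaf (10.2 to 14.1) and 11.0% in flower (9.07 to 13.3). Root and stem thus had the larger shares and leaf and flower the smaller ones. For each read of the 3′ arm, stem had 5.25 and root 5.30 reads of the 5′ arm, and leaf had 7.30 and flower 8.10. The number of 3′ reads per 5′ read was 1.54 times as high in stem as in flower (1.20 to 1.98), 1.53 times as high in root as in flower (1.18 to 1.97), 1.39 times in stem against leaf (1.11 to 1.75) and 1.38 times in root against leaf (1.10 to 1.74). Root against stem and leaf against flower were not told apart, with 0.991 (0.823 to 1.19) and 1.11 (0.831 to 1.47).

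All hairpins with at least 10 reads on each arm give the setting for this share. There were 12 of them with that of miR168 included, and by the share of the less abundant arm over all libraries, 14.3% for miR168 was the 7th. The guide arms of miR164, with 3.42% on the minor arm, and of miR166, with 0.111%, were far more dominant. Besides those of miR164 and miR166, the hairpin of csi-miR396a_1ss21GT had more reads than that of miR168. Its minor share was 34.0% in leaf, 21.6% in stem, 20.8% in root and 10.7% in flower, so that leaf and not root or stem was highest. The miR164 hairpin ranged from 3.18% in root to 6.56% in stem. Whether the miR168 pattern differs from theirs was not tested.

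miR403, the family that acts on AGO2 in *Arabidopsis*, was highest in stem. Stem gave 3913 reads of har-miR403a and root 2374, while leaf gave 1135 and flower 1057. Its normalized count was 2797 in stem (2710 to 2886), 2158 in leaf (2035 to 2288), 1489 in flower (1401 to 1582) and 1299 in root (1248 to 1353). The order was stem, leaf, flower and root, and each neighbour in it differed beyond counting error. Stem stood 2.15 times above root (2.04 to 2.27) and 1.30 times above leaf (1.21 to 1.39). The reads departed from the depths of the libraries (chi-squared test, p = 6.76e-221, and 1.49e-219 adjusted over all names).

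Unlike miR168, miR403 kept its highest tissue under all 5 scalings, and stem lay above leaf beyond counting error in each of them. This is not particular to miR403. Reads of csi-miR396a_1ss21GT were spread much alike, with 4148 in stem, 2484.5 in root, 1222 in flower and 1146 in leaf. Stem was its highest tissue under all 5 scalings too. How many sequences keep their highest tissue in this way was not counted. Of the 38 sequences with at least 100 reads, 13.2% were highest in stem by normalized count, 31.6% in leaf, and 26.3% were highest in stem by RPM. miR403 had 594 RPM in stem (576 to 613), 268 in root (257 to 279), 260 in flower (244 to 276) and 211 in leaf (199 to 224). Stem was then 2.82 times leaf, the lowest (2.63 to 3.01), and root and flower were not told apart. The lowest tissue of miR403 moved with the scaling, being root, leaf or flower.

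**Figure D2:**
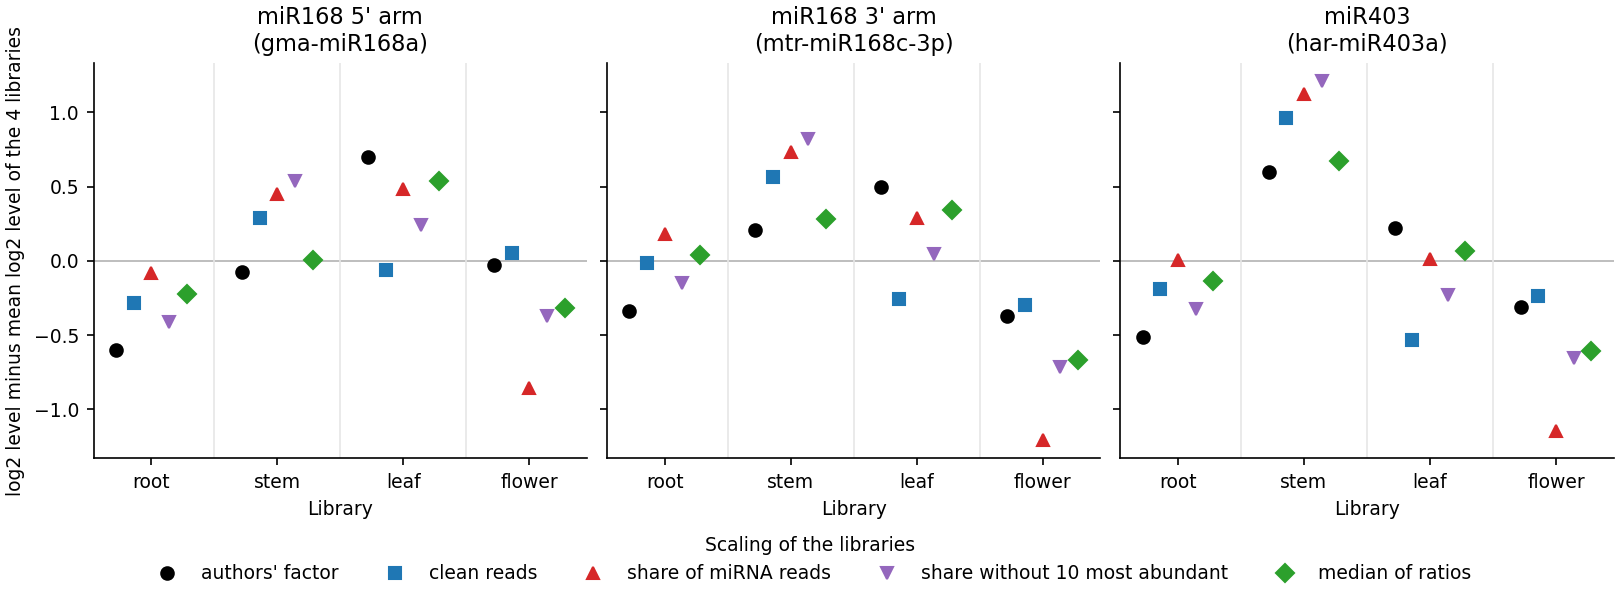
log2 level of each abundant member in each library, minus its mean over the 4 libraries, under 5 ways of scaling the libraries. Each point is 1 library under 1 scaling. For miR403 every stem point lies above the points of the other tissues under the same scaling, whereas for both miR168 arms leaf and stem change places.

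Added up, the 3 families took their largest part of the library in stem, where they stood at 872 RPM (850 to 895). Flower had 483 RPM (462 to 505), root 455 RPM (441 to 469) and leaf 420 RPM (402 to 437). As a share of the miRNA reads of the table they made up 1.51% in stem, 0.948% in leaf, 0.807% in root and 0.397% in flower. The flower share is the smallest, and in flower the most abundant sequence alone took 90.7% of the miRNA reads, against 72.7% to 79.5% in the other tissues. The part of that sequence in the flower share was not tested. By normalized count the order was different again, with 4292 in leaf (4117 to 4473), 4106 in stem (4000 to 4214) and 2766 in flower (2645 to 2891). Root was the lowest with 2206. The intervals of leaf and stem overlap, so leaf is not shown to lie above stem.

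Set against each other within a library, miR403 outnumbered gma-miR168a in all 4 tissues. There were 2.54 reads of miR403 for each read of gma-miR168a in stem (2.40 to 2.70), 1.70 in root (1.59 to 1.82), 1.31 in flower (1.20 to 1.44) and 1.15 in leaf (1.06 to 1.25). All 6 pairs of libraries differed beyond counting error, the closest being leaf and flower with 0.878 (0.773 to 0.997). These intervals were not adjusted for the number of pairs, and that of leaf and flower nearly includes equal ratios. The ratio was 2.21 times as high in stem as in leaf (1.99 to 2.45). Both sequences have 21 nt, and the ratio is one of reads, which need not be one of molecules.

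**Figure D3:**
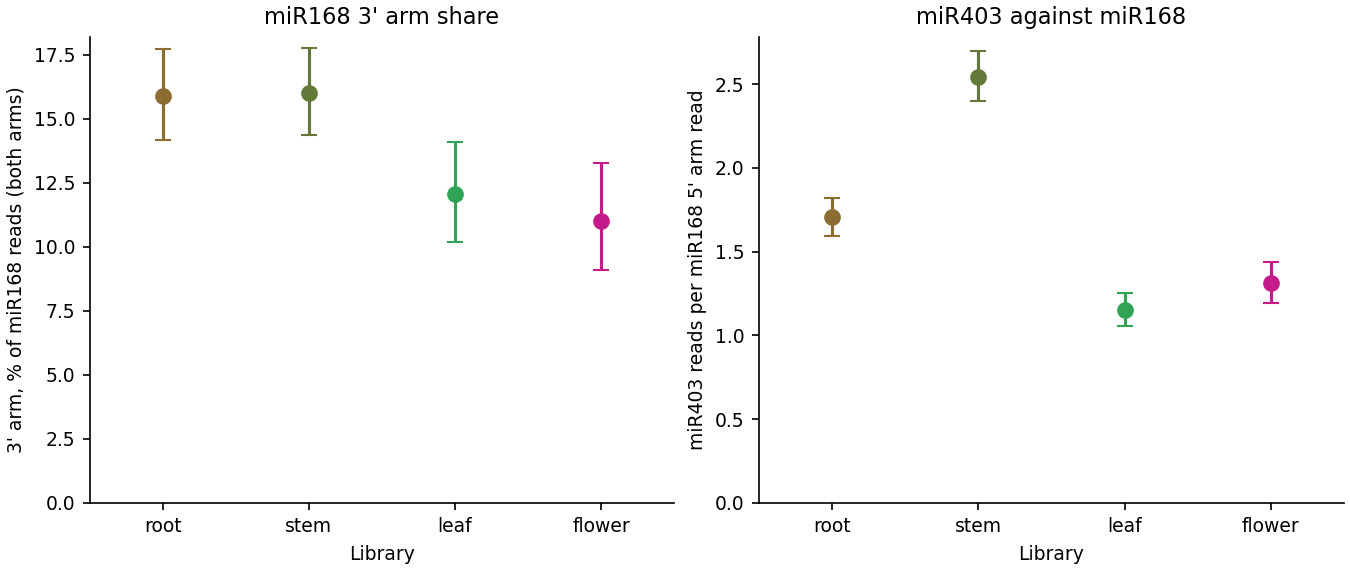
Share of the 3′ arm among miR168 reads (left axis, %) and reads of miR403 per read of the miR168 5′ arm (right axis) in each library. Points are 1 library each with exact 95% intervals for counting error. The 3′ arm share lies at 15.9% and 16.0% in root and stem and at 12.0% and 11.0% in leaf and flower, and the miR403 ratio is largest in stem.

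By normalized count, the 3 abundant members varied less between tissues than most of the 38 sequences with at least 100 reads. Here highest over lowest tissue was 2.46 for gma-miR168a, 2.15 for har-miR403a and 1.83 for mtr-miR168c-3p, against a median of 3.82 over the 38 sequences. At 2 times or more stood 89.5% of these sequences, and 2 of the 3 members. Smaller values than those of the members were found for 10, 6 and 2 of the 38 sequences, in the same order. Many of the 38 have far fewer reads than gma-miR168a and har-miR403a. The other sequences with 4273.5 to 10705 reads gave 1.55, 2.18, 2.35, 12.0, 21.9 and 42.7, which lie on both sides of these 2 members. The other sequences with 754 to 811.5 reads, near the 790.5 of mtr-miR168c-3p, gave 4.14, 5.73 and 5.95. For miR403, 6 sequences lay below it by normalized count, 7 by clean reads and 10 by the median of ratios. As a share of all miRNA reads its value was 4.82 and 20 sequences lay below it. Scaled by miRNA reads without the 10 most abundant sequences, the value was 3.64, with 16 sequences below it. For gma-miR168a the value ran from 1.49 to 2.54 over the 5 scalings, with 0 to 10 sequences below it. For mtr-miR168c-3p it ran from 1.82 by clean reads to 3.83 as a share of all miRNA reads, where 14 sequences lay below it, and it was 2 times or more under 3 of the 5 scalings.

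**Figure D4:**
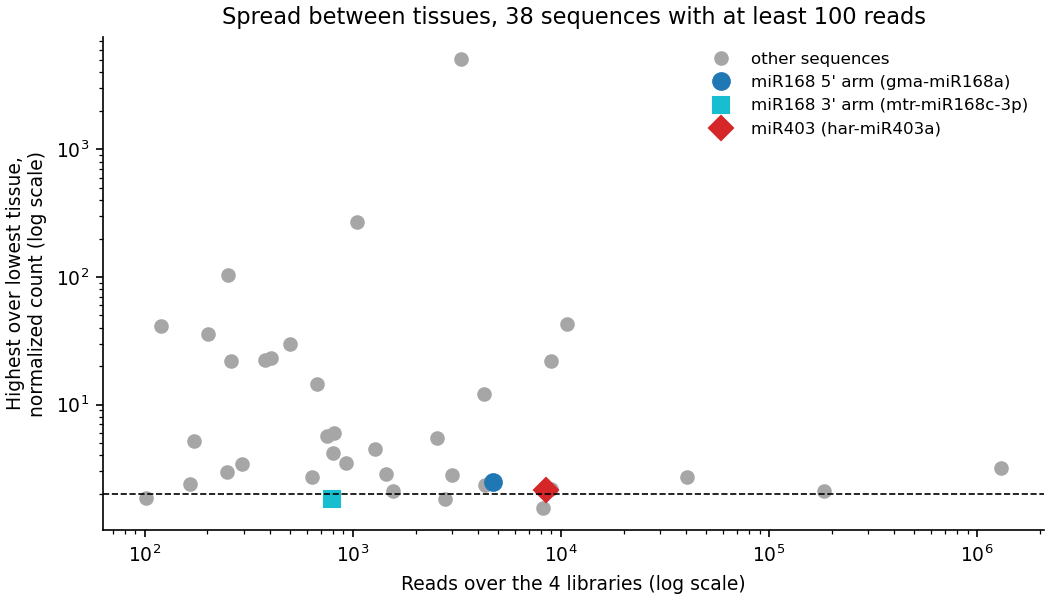
Highest over lowest normalized count among the 4 tissues (vertical log axis) against the reads over the 4 libraries (horizontal log axis), for the 38 sequences with at least 100 reads. Each point is 1 sequence, and the dashed line marks 2 times. The miR168 and miR403 points lie between 1.83 and 2.46, in the lower part of the range of 1.55 to 5083. The top value, of lus-miR171h_L-1R+1, rests on 0.5 read in stem, as only counts of exactly 0 were raised to 3 reads.

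Likeness of tissue patterns was measured as the percentage of one sequence's normalized count that would have to change tissue to give the shares of the other, among the 38 sequences over 4 tissues. The sequence most like har-miR403a was csi-miR396a_1ss21GT, of a family known to target growth-regulating factors, at a distance of 1.70%. Its normalized counts were 2965 in stem, 2179 in leaf, 1722 in flower and 1360 in root, beside 2797, 2158, 1489 and 1299 for miR403. mtr-miR168c-3p followed at 8.75% and bdi-miR156d-3p_3ss7TC8G-13GC at 11.0%. Nearest to gma-miR168a were tcc-miR530b_R+1 at 6.50%, ath-miR159a_R-1 at 8.13% and bdi-miR156b-5p_L+1_1ss20AC at 8.62%. Nearest to mtr-miR168c-3p were har-miR403a at 8.75%, ath-miR159a_R-1 at 8.86% and gma-miR168a at 8.89%. With 4 tissues such distances are a description.

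Families known in other plants to start secondary siRNAs, another branch of the small RNA machinery, were listed beside the members. Of 7 such families, 6 were found and 2 had at least 100 reads, and both of these were highest in flower by normalized count, as were 28.9% of the 38 sequences. miR390, which acts with AGO7 in *Arabidopsis*, had a normalized count of 556 in flower, against 19.4 in root, 27.3 in leaf and 48.0 in stem. miR393, which acts on auxin receptors, had 1460 in flower and 280.5 in leaf, against 75.0 in stem and 7.11 in root. The other 4 families had 1 to 32 reads each, and miR482 was highest in flower, miR2118 and miR2275 in leaf and miR1509 in root. Of the 13 names of this list that were tested across libraries, 5 passed at p under 0.01, which at 38.5% is close to the 34.3% of all names tested. All 5 were highest in flower by normalized count, as were 42.9% of all names that passed. The test was passed by 3 of the 6 members. They are the 3 with more than 1 read, and the other members could not pass with 1 read. All 3 took the chi-squared test, which nearly all names that took it passed.

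No cleavage site was assigned to these families in the degradome of the mixed tissues. Of the 82 pairs of small RNA and transcript in the degradome table, 0 carried a name or a sequence of miR168, miR403 or miR162. The table lists only pairs that the authors' programs called on expressed sequence tags of the plant, so it sets no upper limit on cleavage by these miRNAs, and the mRNAs of AGO1, AGO2 and DCL1 were not analysed here.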

How the data were processed

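The 4 tissues were each sequenced as 1 small RNA library, and samples were grouped by their tissue labels. The deposited estimated counts are reads per miRNA and precursor, which the authors obtained with ACGT101-miR 4.2 after removing adapters, reads outside 18 to 25 nt and other RNA classes. The authors' normalized count, a signal, is these reads times 1 factor per library, found by regression on sequences common to all libraries. The degradome table holds reads at cleavage sites as a deposited count from CleaveLand 3.0 and ACGT301-DGE 1.0. Folding energies and hairpin lengths are given as other values by the authors. The analysed entries hold 238148 reads in leaf, 380306 in stem, 494824 in flower and 499434 in root, or 4.43% (leaf) to 12.2% (flower) of the clean reads, and the most abundant sequence took 72.7% to 90.7% of them. Another 6 lines of the table are not analysed here.

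For each name, sequence and family the reads of its entries were added up, and sums were rounded before any test. A name was tested for departure from library depth, taken as 1 over the factor, by Pearson's chi-squared statistic if no expected count fell below 5, and otherwise with the exact multinomial test. Names at p under 0.01 before adjustment were called. Intervals are exact at 95%, from the Poisson distribution for reads, the binomial for shares and ratios, and Fisher's conditional odds ratio for ratios between libraries. For a count of 0 the upper limit was set to 3 reads. The test was checked on simulated data. The named items were all members, the 3 sequences most like each abundant member, hairpins with 10 reads on each arm and a list of 7 families. Members and lists were chosen with earlier results of these data known. Computations used scipy 1.17.1, numpy 2.4.6 and pandas 2.3.3 under Python 3.11.15, and plots matplotlib 3.10.9.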

Additional observations from a re-analysis of the deposited data

How the results depend on the processing

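With 1 library per tissue no replicate could be left out, and no paired analysis was possible because no group has a second sample. gma-miR168a, mtr-miR168c-3p and har-miR403a passed the test across libraries under all 8 alternatives of scaling, summing, adjustment, minimum reads and statistic, and 85 to 98 names or sequences passed in all, against 98. The log2 levels moved with the scaling. For gma-miR168a, leaf over root was 1.30 by the authors' factors, 0.22 by clean reads and 0.57 as a share of miRNA reads. Leaf over root was 0.66 relative to miRNA reads without the 10 most abundant sequences, and 0.76 by the median of ratios. For the same sequence, stem over leaf was -0.77 by the authors' factors, and in the same order 0.35, -0.034, 0.30 and -0.53. For mtr-miR168c-3p, stem over leaf was -0.29 by the authors' factors, 0.83 by clean reads, 0.44 as a share and 0.77 without the 10 most abundant. Its leaf over flower was 0.87, but 0.037 by clean reads and 1.5 as a share. For har-miR403a, stem over root was 1.11, but 1.53 without the 10 most abundant and 0.81 by the median of ratios. Its stem over leaf was 0.37, and in the order above 1.49, 1.11, 1.44 and 0.61. The 10 most abundant include gma-miR168a and har-miR403a themselves, so for these the value without them is a ratio to other reads and not a share. With the whole miR168 family in place of its main sequence, miR403 per miR168 read was 2.14 in stem, 1.43 in root, 1.17 in flower and 1.01 in leaf. By distances of log2 values, 1 of the 3 sequences most like gma-miR168a was kept. The cause of these shifts was not tested. Depth limits miR162 and both rare miR168 forms, which have 1 read each.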
